A study of Mus musculus with 9 samples.

Results

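The developmental homeobox and paired factors described here are transcription factors of 9 gene families: Nkx, Lhx, Dlx, Irx, Pax, Msx, Meis, Pbx and the Six-type genes. They were taken by symbol from the raw count table: every gene named Nkx with a pair of hyphenated digits, or named for one of the other families followed by digits only. The rule found 59 members among 33924 genes, and it used no measured value. Of these, 32 had a summed count of at least 90 over the 9 libraries, and 36 passed the filter on low counts and could be tested.

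RNA was sequenced from male mouse embryonic stem cells, pluripotent cells of the early embryo, grown on gelatin in serum with the cytokine LIF and given no treatment. There were 3 libraries of wild type cells (JM8A in the titles), 3 of a UTX knockout (A6 in the titles) and 3 of JM8A cells labelled as an MLL4 knockdown, whose titles carry a further number. UTX, gene Kdm6a, is an X-linked demethylase of histone H3 lysine 27. MLL4 is read here as gene Kmt2d, a methyltransferase that marks enhancers, though the titles do not name that gene. A clone or line effect cannot be told apart from either perturbation, since the labels explain neither A6 nor that number and each group carries 1 such name. No label says that libraries of a group are separate cultures. The p-values therefore reflect only the spread among these samples, which may be technical.

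These families pattern the embryo after pluripotency ends. Pbx and Meis are homeodomain proteins of the TALE class (named for a loop extension in the DNA-binding fold) that bind DNA with each other and with Hox proteins, and the Iroquois (Irx) factors belong to the same class. Six-type factors act in eye, kidney, muscle and sensory placodes, and Pax factors carry a paired DNA-binding domain. Nkx factors specify ventral neural tube, heart, gut and prostate, Dlx and Msx factors act in face, limb, skin and forebrain, and Lhx factors carry LIM domains and act in forebrain, pituitary and gonad. In embryonic stem cells many such genes are known as Polycomb-repressed genes with CpG-rich promoters.

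The libraries held between 18570746 and 23874816 gene counts. Levels are in CPM, counts-per-million after scaling between libraries. Kdm6a, the target of the knockout, fell from a wild type mean of 78.9 ± 18.9 CPM to 16.4 ± 3.33 CPM (SD, n = 3) when knocked out (log2 change -2.27 with SE 0.20, adjusted p = 0.000155). Kmt2d, which the table lists as Mll2, averaged 72.1 ± 1.21 CPM where its knockdown was labelled and 82.9 ± 37.9 CPM in wild type, and it did not pass the test (log2 fold change -0.20, SE 0.27, adjusted p = 0.624). That group is therefore called by its label throughout, and each direction given for it rests on a label that this check did not bear out. The check itself assumes that the label means Kmt2d. Embryonic stem cell markers were abundant in all groups: 10 of 10 were tested, and their summed level was 5237 to 6311 CPM over wild type libraries, 6455 to 7099 with UTX knocked out and 6581 to 7247 under the MLL4 label, so both perturbed groups lay above every wild type library. Of them, 1 fell and none rose with UTX knocked out, and 4 rose and 2 fell under the MLL4 label. Over all tested genes, 8.92% fell and 6.55% rose with UTX knocked out, and 15.8% fell and 10.8% rose under the MLL4 label. Most tested markers of feeder or fibroblast cells fell in both perturbed groups. Of 8 tested, 6 fell and none rose with UTX knocked out, and 7 fell and 1 rose under the MLL4 label. The shares of all tested genes beside these counts are those just given. The summed level of the feeder or fibroblast markers was 144 to 326 CPM over wild type libraries, 76.8 to 93.9 with UTX knocked out and 140 to 181 under the MLL4 label. Lum was listed at 0 throughout. The 1 marker that rose under the MLL4 label made up most of the sum there. It averaged 132.5 ± 23.4 CPM there and 88.5 ± 6.67 CPM in wild type (SD, n = 3). The sum thus does not show the fall of the other 7. Neural markers, a list that includes Pax6, summed to 184 to 250 CPM over wild type libraries, 154 to 188 with UTX knocked out and 140 to 157 under the MLL4 label. Their part in the results on the members was not tested. In bulk RNA, fewer cells expressing a gene and less RNA per cell cannot be told apart.

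Many members were silent or nearly so. The 23 untested members had summed counts from 0 to 59 over the 9 libraries. They were, with their summed counts, Pax1 (59), Pax3 (56), Nkx2-9 (54), Pax7 (47), Pax5 (40), Nkx1-2 (30), Six6 (29), Nkx2-3 (25), Nkx6-1 (21), Lhx1 (20), Dlx6 (17), Dlx1 (16), Lhx8 (16), Lhx9 (16), Dlx5 (10), Irx6 (8), Nkx2-2 (8), Nkx3-2 (5), Lhx4 (2), Nkx2-1 (2), Nkx1-1 (1), Pax4 (1) and Nkx2-6 (0). Among them are Nkx2-1 of lung and thyroid, Pax4 of pancreatic endocrine cells and the forebrain gene Dlx5. A count of 0 in a library allows up to 0.128 to 0.161 CPM, counting error only, so low expression of these genes is not detectable at this depth. By family, members with at least 90 counts numbered 4 of 4 for Pbx, 3 of 3 for Meis, 3 of 3 for Msx, 5 of 6 for Irx, 4 of 6 for the Six-type genes, 3 of 9 for Pax, 3 of 8 for Lhx, 2 of 6 for Dlx and 5 of 14 for Nkx. Just inside the threshold were Pax2 (93), Nkx2-4 (94) and Six2 (95), and just outside were Dlx2 (86), Six3 (73), Lhx3 (68) and Pax9 (66), which nonetheless passed the filter for testing. Pax9 passed that filter only through the UTX knockout libraries, so its level there had to be the higher. Six3 passed through perturbed libraries only, with 2 of the UTX knockout, 1 of the labelled MLL4 knockdown and 0 of the wild type above the CPM limit, so its level in wild type had to be the lower.

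A few members were well expressed. Pbx2 led at a mean of 84.4 CPM over the 9 libraries, and other high members were Six4 at 49.2, Pbx3 at 18.7 and Nkx6-3 at 10.3 CPM. Per kilobase of exon, the scale on which genes may be compared, the levels of the high members given here were, in order, Pbx2 at 23.2, Nkx6-3 at 4.60, Six4 at 4.53, Pbx4 at 4.04 and Pbx3 at 3.06 CPM per kilobase. Summed over all 59 members, the level was 246 ± 20.8 CPM for wild type, 262 ± 25.1 with UTX knocked out and 247 ± 20.9 under the MLL4 label (SD, n = 3 each). Pbx2 and Six4 hold a large part of these sums, and without them the libraries summed to 104 to 137 CPM. The sums over all members overlapped between groups. Differences between groups were found in single members of lower level. The plot of CPM by library shows both facts.

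**Figure D1:**
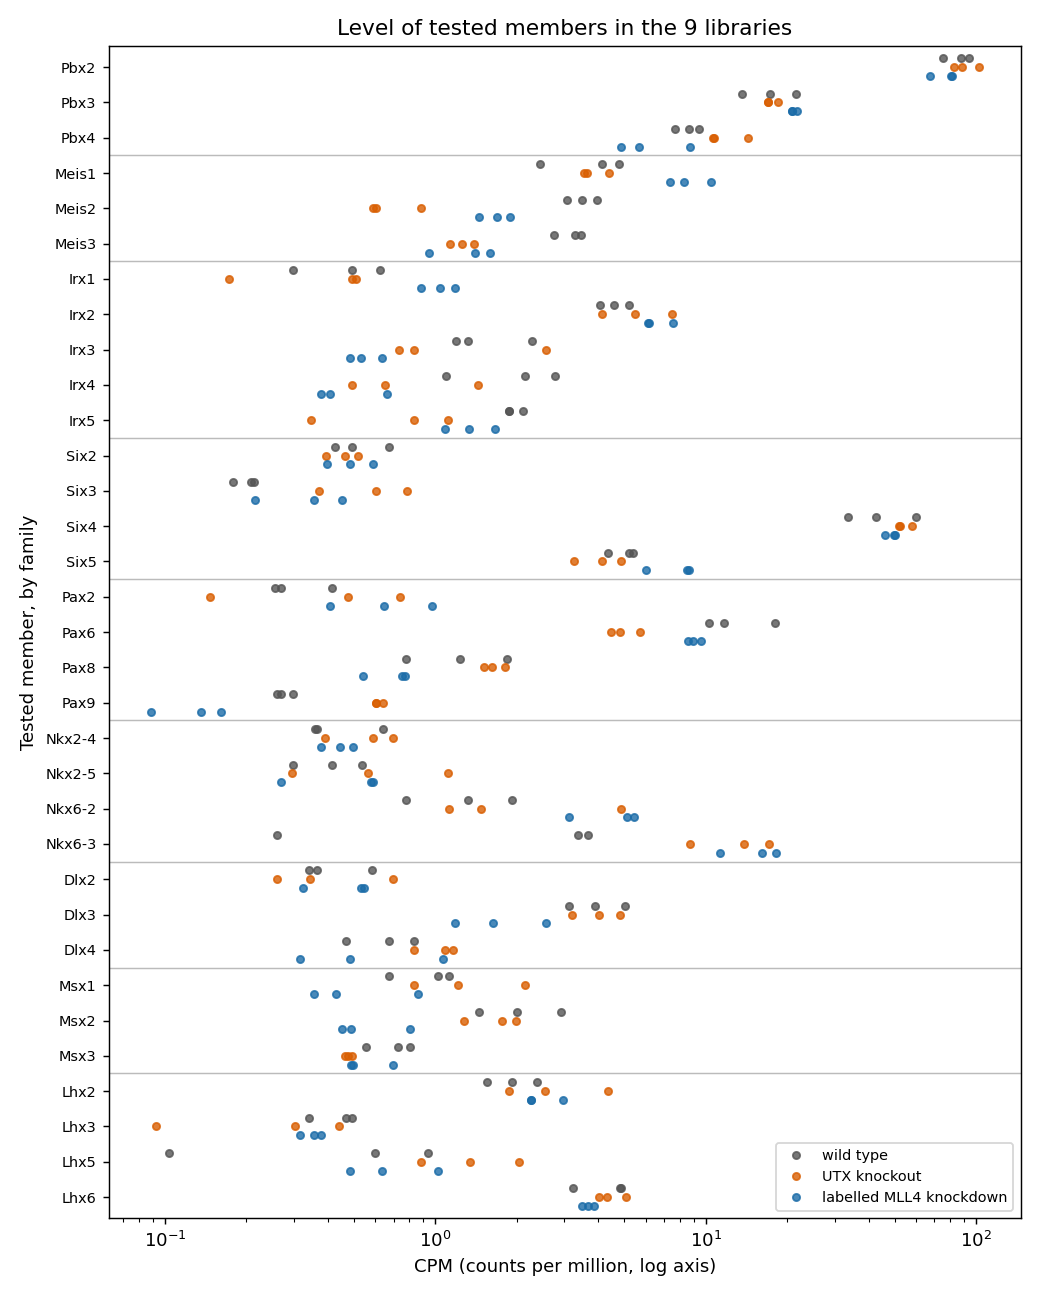
Level of the tested members reported here (y axis, by family) in CPM on a log axis (x axis), with 1 point for each of the 9 libraries, coloured by group. Pbx2 and Six4 lie farthest right in every library, and Nkx6-3 has 1 wild type library at 0.260 CPM and all 6 perturbed libraries at or above 8.74 CPM.

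Against wild type, the UTX knockout differed in 6 of 36 tested members (16.7%), against 15.5% of all 14772 tested genes. Nkx6-3 and Six3 rose, and Meis2, Pax6, Meis3 and Irx5 fell. Calls here are at a Benjamini-Hochberg adjusted p under 0.05 in edgeR's quasi-likelihood test, two-sided, over all tested genes. The 2 that rose are 5.56% of tested members against 6.55% of all genes, and the 4 that fell are 11.1% against 8.92%, so the members' share was near the background in both directions. Six3 passed the filter only through perturbed libraries, so its level in wild type had to be the lower. Among the 32 members with at least 90 counts, which leave out Six3, 5 differed, and 1 of these rose. The median log2 fold change of the tested members was 0.04, with -0.01 over all tested genes, and the median absolute log2 fold change was 0.50 against 0.27. Many members are low, and the genes were not matched for level, here or in the comparisons below. The absolute medians thus do not show that members changed more than other genes. In 10 of 36 members (27.8%) the libraries of both groups did not overlap, against 31.5% of all tested genes.

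In the libraries labelled MLL4 knockdown, 10 of 36 tested members differed from wild type (27.8%), against 26.6% of all tested genes. Nkx6-3, Nkx6-2, Meis1 and Six5 rose, and Irx4, Msx2, Irx3, Meis3, Dlx3 and Meis2 fell. The 4 that rose make 11.1% against a background of 10.8%, and the 6 that fell make 16.7% against 15.8%. All 10 were among the 32 members with at least 90 counts. The median log2 fold change was -0.15 for the members and -0.02 for all tested genes, and the median absolute values were 0.52 and 0.32. Libraries of both groups did not overlap in 17 of 36 members (47.2%), against 42.9% of all tested genes.

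Directly compared, the labelled MLL4 knockdown and the UTX knockout differed in 11 of 36 tested members (30.6%), against 28.9% of all tested genes. Irx1, Meis2, Meis1, Six5 and Pax6 were higher in the labelled MLL4 knockdown, 13.9% of members against a background of 13.0%. Pax9, Msx2, Msx1, Pax8, Dlx3 and Pbx4 were lower there, 16.7% against 16.0%. Pax9 entered the test only through its UTX knockout libraries, so its level there had to be the higher. Among the 32 members with at least 90 counts, which leave out Pax9, 10 differed. Both perturbed groups were set against the same wild type libraries, so their changes are not independent, and values are given side by side below. The median log2 fold change was -0.17 for the members and -0.02 for all tested genes, with median absolute values of 0.63 and 0.34. The libraries did not overlap in 16 of 36 members (44.4%), against 52.6% of all tested genes.

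By their titles, replicate 2 of each group came from lane 1, and replicates 1 and 3 from lane 2. With lane 2 alone, which leaves 2 libraries a group, 0 members passed edgeR's test in any comparison, and 6, 11 and 11 of 35 tested members had an unadjusted p under 0.05 in the UTX knockout, labelled MLL4 knockdown and direct comparisons. Adjusted p there lay between 0.0542 and 0.205 for the members called with all libraries, except Six3, which was not tested. In lane 1, with 1 library a group and no test, all 6, 10 and 11 called members differed in the same direction as over all libraries. These libraries were among those that gave the calls, and most called members had groups that did not overlap. That agreement was therefore largely fixed beforehand and is no support for the calls. The smallest p that an exact permutation test could reach with 3 libraries on each side is 0.1, and none was run.

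**Figure D2:**
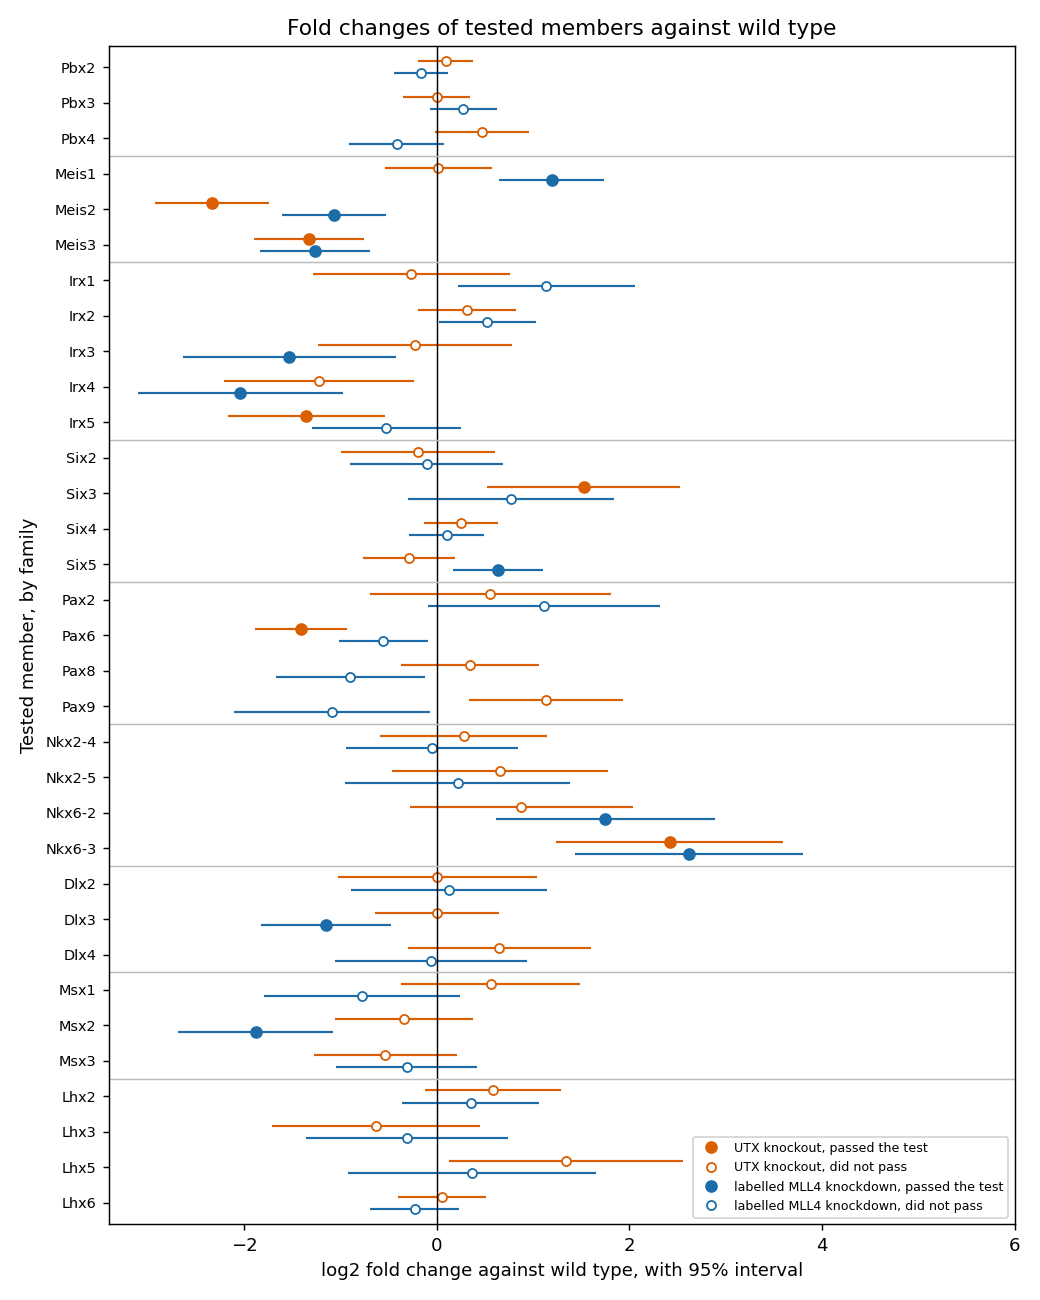
Fitted log2 fold change against wild type (x axis) with its 95% interval for the tested members reported here (y axis, by family), for the UTX knockout (orange) and the labelled MLL4 knockdown (blue). Filled points passed edgeR's test: Nkx6-3 lies at 2.42 and 2.62, Meis3 at -1.32 and -1.26, and Meis2 at -2.33 and -1.07, while Pbx2, Pbx3 and Six4 lie near 0.

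To show the sequence in front of members that changed, the 250 bases before the annotated start were taken from RefSeq on GRCm38.p6. Of the 13 members called in either comparison with wild type, 10 had such a window, and the 5 given here are those with at most 30 bases of annotated exon in it. They are Irx4 at chr13:73260247-73260496 on the plus strand, Meis1 at chr11:19018970-19019219 on the minus strand, Nkx6-2 at chr7:139582798-139583047 on the minus strand, Pax6 at chr2:105668646-105668895 on the plus strand and Six5 at chr7:19094294-19094543 on the plus strand. Each is written 5′ to 3′ on the gene's strand, and capitals mark CG dinucleotides, the sites of DNA methylation and of CpG island promoters.
Irx4: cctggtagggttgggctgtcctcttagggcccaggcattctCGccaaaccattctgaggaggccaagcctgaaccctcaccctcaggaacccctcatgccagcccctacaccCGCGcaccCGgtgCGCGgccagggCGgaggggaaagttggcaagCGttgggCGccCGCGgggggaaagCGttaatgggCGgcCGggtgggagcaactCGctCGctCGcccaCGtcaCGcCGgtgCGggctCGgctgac
Meis1: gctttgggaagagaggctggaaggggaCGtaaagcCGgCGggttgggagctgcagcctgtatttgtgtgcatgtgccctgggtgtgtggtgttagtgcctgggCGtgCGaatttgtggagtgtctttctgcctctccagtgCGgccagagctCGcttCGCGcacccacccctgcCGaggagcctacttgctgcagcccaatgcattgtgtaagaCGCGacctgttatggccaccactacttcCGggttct
Nkx6-2: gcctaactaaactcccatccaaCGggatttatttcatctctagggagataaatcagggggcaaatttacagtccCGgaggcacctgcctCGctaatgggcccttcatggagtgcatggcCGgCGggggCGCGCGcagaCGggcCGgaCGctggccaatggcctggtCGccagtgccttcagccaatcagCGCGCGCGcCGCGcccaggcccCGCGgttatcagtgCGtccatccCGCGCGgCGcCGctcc
Pax6: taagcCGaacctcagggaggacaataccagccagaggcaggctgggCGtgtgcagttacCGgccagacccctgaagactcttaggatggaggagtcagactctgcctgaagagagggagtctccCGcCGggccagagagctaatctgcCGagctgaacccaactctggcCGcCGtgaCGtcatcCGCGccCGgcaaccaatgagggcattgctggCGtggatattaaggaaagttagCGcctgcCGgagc
Six5: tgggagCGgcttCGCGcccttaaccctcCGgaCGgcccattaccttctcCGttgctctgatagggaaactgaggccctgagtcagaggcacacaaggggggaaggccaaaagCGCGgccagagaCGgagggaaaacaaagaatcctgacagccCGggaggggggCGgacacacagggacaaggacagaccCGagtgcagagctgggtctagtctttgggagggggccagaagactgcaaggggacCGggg
The windows hold 22 CG dinucleotides for Irx4, 13 for Meis1, 26 for Nkx6-2, 15 for Pax6 and 13 for Six5. Nkx6-2 and Six5 rose in the labelled MLL4 knockdown, as did Meis1, while Irx4 fell there and Pax6 fell in the UTX knockout, so windows with many CG dinucleotides stood before members of both directions. RefSeq windows were found for 43 members, 51 windows in all, and their median was 15 CG dinucleotides against 6 over all 32841 windows of the same length. In 47 of 51 the count was above the overall median, as it was in 46.3% of all windows. The homeodomain core TAATTA, which reads the same on both strands, was in 1 of 51 windows, that of Msx2 (2.0% against 4.8% of all windows). The Meis core TGACAG, searched on both strands, was in 10 of 51 (19.6% against 15.9%). One of the 10 is the Six5 window printed above. These are matches of letters and not tested sites.

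**Figure D3:**
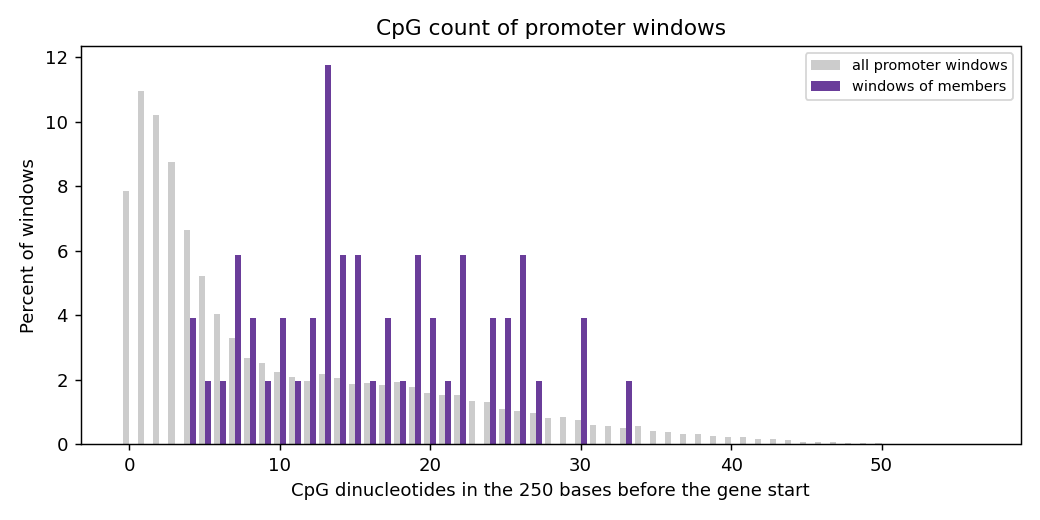
Share of windows (y axis, percent) by the number of CG dinucleotides in the 250 bases before the gene start (x axis), for all 32841 RefSeq windows (grey) and the 51 windows of members (purple). Member windows run from 4 to 33 with a median of 15, to the right of the overall median of 6.

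Among the Pbx genes, whose proteins are partners of Meis and Hox, no member passed the test against wild type. Pbx2, the highest member, stood at 75.4, 94.0 and 87.6 CPM over the wild type libraries, 82.5, 88.9 and 102 with UTX knocked out, and 67.3, 80.7 and 81.1 with the MLL4 label. Both perturbed groups overlapped wild type, while every library with the MLL4 label was below every UTX knockout library, and the direct difference did not pass (log2 change -0.26 with SE 0.13, adjusted p = 0.155). The differences from wild type were 0.09 (95% interval -0.19 to 0.37, adjusted p = 0.675) and -0.17 (95% interval -0.45 to 0.12, adjusted p = 0.373) in log2. Pbx3 stood at 21.6, 13.6 and 17.2 CPM over the wild type libraries, 17, 16.9 and 18.4 with UTX knocked out, and 21.7, 20.9 and 20.9 with the MLL4 label. Its difference from wild type was 0.00 (95% interval -0.35 to 0.35, adjusted p = 1.00) in log2 in the UTX knockout and 0.28 (95% interval -0.07 to 0.63, adjusted p = 0.227) in the labelled MLL4 knockdown.

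Pbx4, known for its expression in testis, was the exception in the direct comparison. Pbx4 stood at 9.45, 8.65 and 7.66 CPM over the wild type libraries, 10.6, 10.7 and 14.3 with UTX knocked out, and 4.84, 5.66 and 8.72 with the MLL4 label. Every UTX knockout library was above every wild type library and above every library labelled MLL4 knockdown. Pbx4 was lower in the labelled MLL4 knockdown than in the UTX knockout (log2 change -0.88 with SE 0.23, adjusted p = 0.0137). This call was lost without replicate 3 of the UTX knockout, or replicate 1 or 2 of the labelled MLL4 knockdown (adjusted p from 0.0560 to 0.0630). Against wild type the log2 differences were 0.47 (95% interval -0.02 to 0.95, adjusted p = 0.177) and -0.42 (95% interval -0.91 to 0.08, adjusted p = 0.198). Leaving out 1 library made the second of these a call, without replicate 3 of the labelled MLL4 knockdown (adjusted p = 0.0494), as it did for Pbx3 without replicate 1 of the wild type (adjusted p = 0.0329).

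The 3 Meis genes, cofactors that raise Hox and Pbx binding and are used in limb, eye and blood development, all differed, and not alike. Meis2 stood at 3.06, 3.49 and 3.94 CPM over the wild type libraries, 0.589, 0.605 and 0.882 with UTX knocked out, and 1.88, 1.45 and 1.68 with the MLL4 label. The 3 groups did not overlap, with wild type highest and the UTX knockout lowest. Meis2 fell in the UTX knockout (log2 change -2.33 with SE 0.27, adjusted p = 0.000693), the largest absolute change among the members that fell there. It fell less in the labelled MLL4 knockdown (log2 change -1.07 with SE 0.25, adjusted p = 0.00922), and the groups differed directly (log2 change 1.26 with SE 0.28, adjusted p = 0.00669). The call for the labelled MLL4 knockdown against wild type was lost without replicate 2 of the labelled MLL4 knockdown (adjusted p = 0.0527), and the other calls held with each library left out in turn.

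Meis3 stood at 2.75, 3.45 and 3.27 CPM over the wild type libraries, 1.13, 1.25 and 1.39 with UTX knocked out, and 1.40, 0.95 and 1.59 with the MLL4 label. Both perturbed groups lay below every wild type library and overlapped each other. It fell in the UTX knockout (log2 change -1.32 with SE 0.26, adjusted p = 0.00779) and in the labelled MLL4 knockdown (log2 change -1.26 with SE 0.26, adjusted p = 0.00502), and both calls held with each library left out in turn. The direct difference was 0.06 (95% interval -0.54 to 0.66, adjusted p = 0.890) in log2. Meis1, a leukaemia-associated cofactor of Hox proteins, moved otherwise, with 2.44, 4.13 and 4.79 CPM over the wild type libraries, 3.63, 4.37 and 3.53 with UTX knocked out, and 7.37, 8.33 and 10.4 with the MLL4 label. The 3 libraries labelled MLL4 knockdown were above all 6 others. Meis1 rose in the labelled MLL4 knockdown (log2 change 1.19 with SE 0.25, adjusted p = 0.00516), and was higher there than in the UTX knockout (log2 change 1.18 with SE 0.25, adjusted p = 0.00527), in both cases also with each library left out in turn. With UTX knocked out the log2 difference was 0.02 (95% interval -0.54 to 0.57, adjusted p = 0.974). Summed over the 3 genes, Meis was at 10.4 ± 1.95 CPM for wild type, 5.79 ± 0.438 with UTX knocked out and 11.7 ± 1.73 under the MLL4 label (SD, n = 3), so in the last group Meis1 rose while Meis2 and Meis3 fell within a sum close to that of wild type.

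The Iroquois genes lie in clusters, here with Irx1, Irx2 and Irx4 on chromosome 13 and Irx3, Irx5 and Irx6 on chromosome 8, and they pattern neural tissue, heart and limb. Irx4, a ventricular gene of the heart, stood at 1.09, 2.77 and 2.15 CPM over the wild type libraries, 0.491, 0.649 and 1.44 with UTX knocked out, and 0.377, 0.407 and 0.664 with the MLL4 label. All libraries labelled MLL4 knockdown were below all wild type libraries, whereas the highest UTX knockout library, replicate 3, was above the lowest wild type library. Irx4 fell in the labelled MLL4 knockdown (log2 change -2.04 with SE 0.48, adjusted p = 0.0104), a call lost without replicate 2 of the labelled MLL4 knockdown (adjusted p = 0.0507). In the UTX knockout it did not pass (log2 change -1.22 with SE 0.45, adjusted p = 0.0892), but it did with the replicate number as a block (log2 fold change -1.25, adjusted p = 0.0200) and without replicate 1 of the wild type, or replicate 3 of the UTX knockout (adjusted p from 0.0282 to 0.0478).

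Irx3 stood at 1.19, 1.32 and 2.28 CPM over the wild type libraries, 0.834, 0.735 and 2.55 with UTX knocked out, and 0.484, 0.634 and 0.531 with the MLL4 label. The libraries labelled MLL4 knockdown were the lowest, and replicate 3 of the UTX knockout, at a level above every wild type library, stood apart from the other 2 of its group. Irx3 fell in the labelled MLL4 knockdown (log2 change -1.53 with SE 0.51, adjusted p = 0.0444), a call lost without replicate 2 or 3 of the wild type, or replicate 1, 2 or 3 of the labelled MLL4 knockdown (adjusted p from 0.0592 to 0.144). Directly compared the perturbed groups did not pass (log2 change -1.31 with SE 0.51, adjusted p = 0.0756), though they did with the replicate block (log2 fold change -1.20, adjusted p = 0.0312). Irx5, its neighbour, stood at 1.87, 1.88 and 2.10 CPM over the wild type libraries, 0.834, 0.346 and 1.11 with UTX knocked out, and 1.67, 1.09 and 1.33 with the MLL4 label. The UTX knockout libraries were below all others except that replicate 3 exceeded replicate 2 of the labelled MLL4 knockdown. Irx5 fell in the UTX knockout (log2 change -1.35 with SE 0.37, adjusted p = 0.0322), a call lost without replicate 2 or 3 of the wild type, or replicate 1 or 2 of the UTX knockout (adjusted p from 0.0522 to 0.104) and in a fit of the 2 groups alone (adjusted p = 0.0699).

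Irx1 stood at 0.623, 0.298 and 0.493 CPM over the wild type libraries, 0.491, 0.173 and 0.511 with UTX knocked out, and 1.18, 1.04 and 0.886 with the MLL4 label. Those labelled MLL4 knockdown were above the other 6. Irx1 was higher there than in the UTX knockout (log2 change 1.40 with SE 0.43, adjusted p = 0.0307), a call lost without replicate 2 or 3 of the UTX knockout, or replicate 1, 2 or 3 of the labelled MLL4 knockdown (adjusted p from 0.0518 to 0.117). Against wild type it did not pass (log2 change 1.14 with SE 0.42, adjusted p = 0.0658), but it did with the replicate block (log2 fold change 1.16, adjusted p = 0.0311) and without replicate 1 of the wild type (adjusted p = 0.0481). Irx2, the most abundant of the family, stood at 5.19, 4.05 and 4.57 CPM over the wild type libraries, 4.12, 5.49 and 7.52 with UTX knocked out, and 6.19, 6.11 and 7.53 with the MLL4 label, and passed in none of the comparisons. Its labelled MLL4 knockdown libraries lay above all wild type libraries, with a log2 difference of 0.52 (95% interval 0.02 to 1.03, adjusted p = 0.115). The family sums overlapped between groups: Irx summed to 10.7 ± 0.796 CPM for wild type, 9.12 ± 3.54 with UTX knocked out and 10.1 ± 0.843 under the MLL4 label (SD, n = 3).

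**Figure D4:**
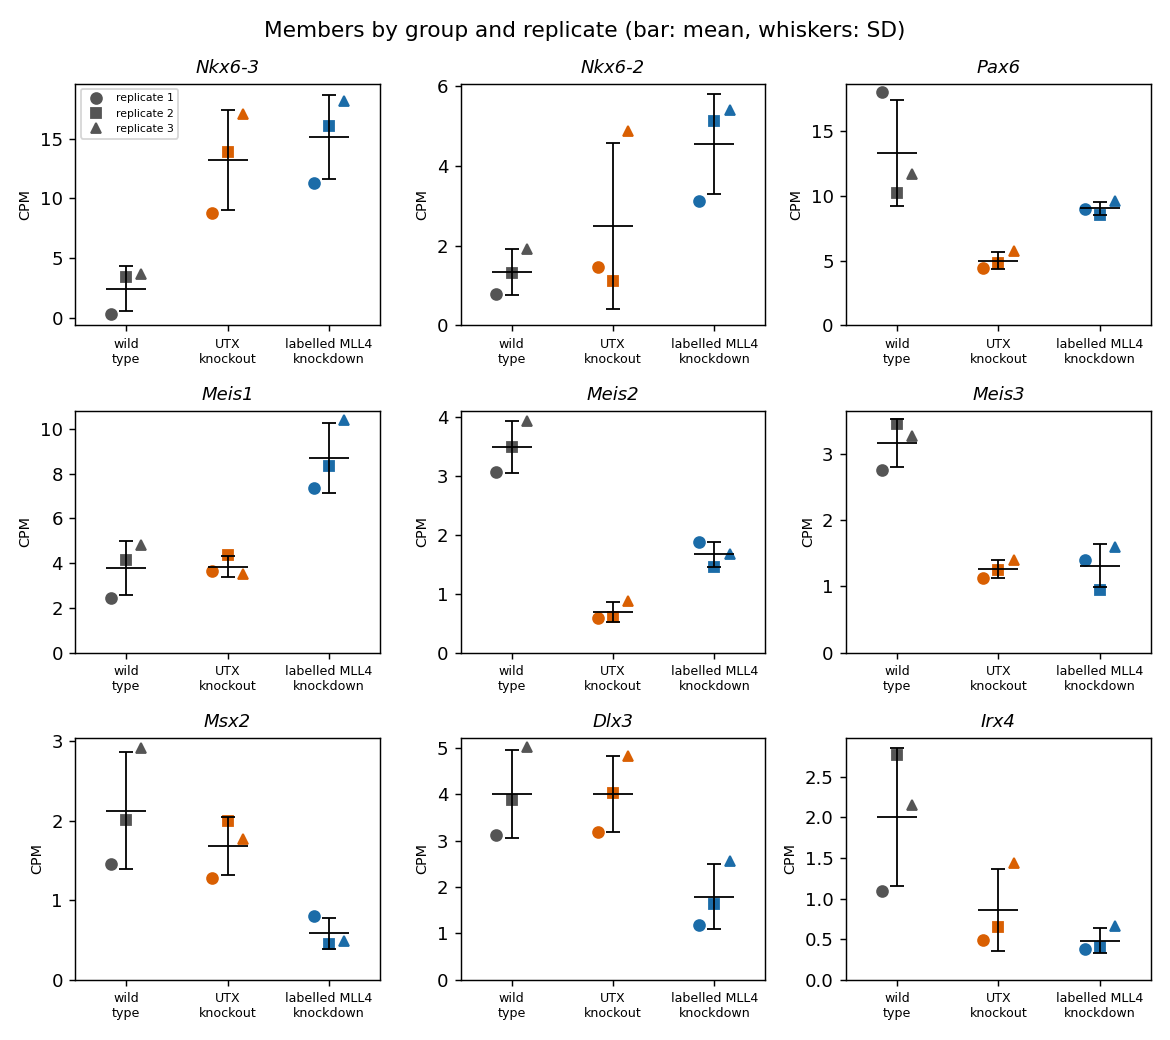
CPM of members that passed a test, by group (x axis) with 1 point per library (symbol by replicate), a bar for the mean and whiskers for the SD. The 3 groups do not overlap for Meis2, the labelled MLL4 knockdown alone is high for Meis1, and Nkx6-3 is at 0.260 CPM in 1 wild type library and at or above 8.74 CPM in all perturbed libraries.

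Chromosome 8 as a whole was lower in both perturbed groups. The median log2 fold change of its 780 tested genes was -0.44 in the UTX knockout, where 35.6% fell, and -0.41 in the labelled MLL4 knockdown, where 40.5% fell. The direct comparison had a median of 0.02 there. The calls of Irx3 and Irx5 stand beside this shift, whose part in them was not tested. Chromosome 4 was shifted less, with medians of -0.15 and -0.22 and 19.4% and 27.2% of its 989 tested genes falling, and no tested member lies on it. All 4 tested genes of chromosome Y fell in both perturbed groups, with medians of -3.93 and -4.18, although the labels call all of the cells male. A difference between lines cannot be told apart from the perturbations here either. Nkx6-3, also on chromosome 8, moved the other way. Pbx4, the remaining tested member there, passed the test against wild type in neither group with all libraries.

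**Figure D5:**
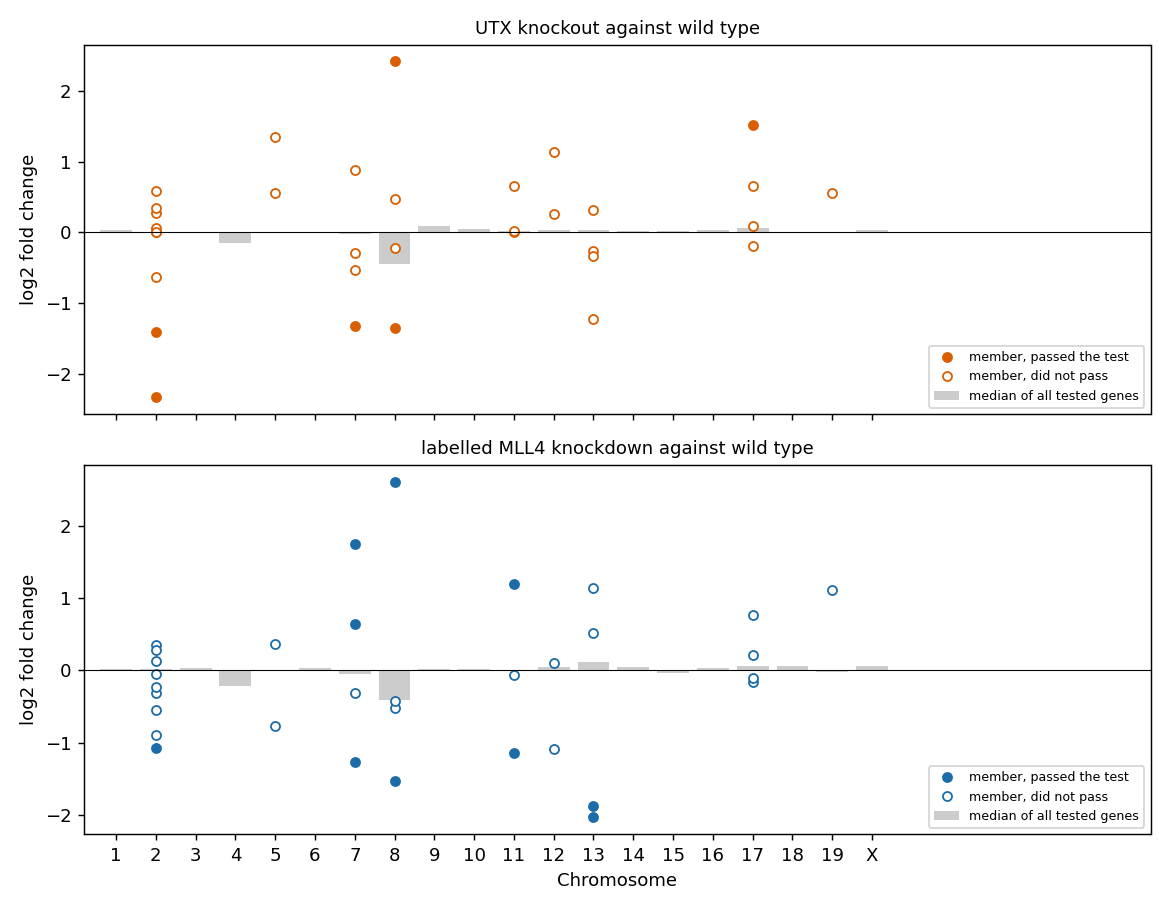
Log2 fold change against wild type (y axis) of the tested members reported here (points, filled where they passed the test) by chromosome (x axis), with the median of all tested genes of that chromosome as a grey bar, for the UTX knockout (top) and the labelled MLL4 knockdown (bottom). The bar of chromosome 8 is at -0.44 and -0.41, and Nkx6-3 on it is at 2.42 and 2.62.

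Nkx6-3, a gene of gastric epithelium, showed the largest rise of any tested member. It stood at 0.260, 3.37 and 3.67 CPM over the wild type libraries, 8.74, 13.9 and 17.1 with UTX knocked out, and 11.3, 16.1 and 18.2 with the MLL4 label. All 6 perturbed libraries were above all wild type libraries. Wild type replicate 1 held 5 counts where replicates 2 and 3 held 79 and 82, while counts were 178, 321 and 368 with UTX knocked out and 210, 356 and 410 with the MLL4 label. Nkx6-3 rose in the UTX knockout (log2 change 2.42 with SE 0.54, adjusted p = 0.0132) and in the labelled MLL4 knockdown (log2 change 2.62 with SE 0.54, adjusted p = 0.00499). The first call was lost without replicate 2 of the UTX knockout (adjusted p = 0.0508). Without wild type replicate 1, the log2 fold changes were 1.93 (adjusted p = 0.00175) and 2.13 (adjusted p = 0.000478), smaller in size and with smaller p. The perturbed groups overlapped, and their difference was 0.20 (95% interval -0.86 to 1.26, adjusted p = 0.786) in log2.

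Nkx6-2, which acts in ventral spinal cord and in oligodendrocytes, stood at 0.779, 1.32 and 1.93 CPM over the wild type libraries, 1.47, 1.12 and 4.88 with UTX knocked out, and 3.12, 5.11 and 5.40 with the MLL4 label. The libraries labelled MLL4 knockdown were above all wild type libraries, and replicate 3 of the UTX knockout, at 4.88 CPM, lay among them while the other 2 lay within the wild type range. Nkx6-2 rose in the labelled MLL4 knockdown (log2 change 1.75 with SE 0.52, adjusted p = 0.0282), a call lost without replicate 1 or 2 of the wild type, or replicate 2 or 3 of the labelled MLL4 knockdown (adjusted p from 0.0579 to 0.0882). In the UTX knockout it did not pass, with a log2 difference of 0.88 (95% interval -0.28 to 2.03, adjusted p = 0.286). The direct difference did not pass either (log2 change 0.87 with SE 0.49, adjusted p = 0.206), but it did with the replicate block (log2 fold change 1.02, adjusted p = 0.0283) and without replicate 3 of the UTX knockout (adjusted p = 0.0128). In the annotation 246 bases of Nkx6-2, 12.9% of its exons, overlap Inpp5a on the other strand. No strand setting is stated, so their reads cannot be told apart in that stretch, and Inpp5a passed in neither comparison with wild type (log2 fold changes -0.25 and -0.18, adjusted p = 0.210 and 0.324).

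Nkx2-5 of the heart and Nkx2-4 stayed below 1.2 CPM in every library and passed no test. Summed, the Nkx genes were at 10.7 ± 1.26 CPM for wild type, 24.1 ± 6.49 with UTX knocked out and 26 ± 4.69 under the MLL4 label (SD, n = 3). Nkx6-3 averaged 2.43 ± 1.89 CPM (SD, n = 3) of this in wild type, 13.2 ± 4.21 CPM (SD, n = 3) in the UTX knockout and 15.2 ± 3.52 CPM (SD, n = 3) in the labelled MLL4 knockdown, and so made up most of the sum in the perturbed groups and not in wild type.

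Pax6, the eye and forebrain factor, was the highest Pax gene. It stood at 18.0, 10.2 and 11.7 CPM over the wild type libraries, 4.47, 4.80 and 5.71 with UTX knocked out, and 8.98, 8.55 and 9.56 with the MLL4 label. The 3 groups did not overlap, and wild type replicate 1 was above the other 2 of its group. Pax6 fell in the UTX knockout (log2 change -1.41 with SE 0.22, adjusted p = 0.00260), also with each library left out in turn, and was higher in the labelled MLL4 knockdown than in the UTX knockout (log2 change 0.85 with SE 0.22, adjusted p = 0.0135), a call lost without replicate 2 of the UTX knockout (adjusted p = 0.0514). In the labelled MLL4 knockdown every library was below wild type, and Pax6 did not pass (log2 change -0.55 with SE 0.21, adjusted p = 0.0721) except without replicate 2 of the wild type (adjusted p = 0.0278). Of 8 tested neural markers, Pax6 included, 2 rose and 3 fell with UTX knocked out, and 2 rose and 2 fell under the MLL4 label. Over all tested genes, 6.55% rose and 8.92% fell with UTX knocked out, and 10.8% rose and 15.8% fell under the MLL4 label. Of the neural markers other than Pax6, Nes and Tubb3 fell in both perturbed groups. Their log2 fold changes (± SE) were -1.40 ± 0.21 and -1.60 ± 0.16 with UTX knocked out, and -3.19 ± 0.23 and -0.79 ± 0.16 under the MLL4 label. Ncam1 rose in both, at 1.2 ± 0.15 and 0.91 ± 0.15.

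Pax8 differed between the perturbed groups. Pax8, of thyroid and kidney, stood at 0.779, 1.24 and 1.84 CPM over the wild type libraries, 1.62, 1.51 and 1.81 with UTX knocked out, and 0.538, 0.769 and 0.753 with the MLL4 label. All libraries labelled MLL4 knockdown were below all others. Pax8 was lower there than in the UTX knockout (log2 change -1.25 with SE 0.35, adjusted p = 0.0208), a call lost without replicate 3 of the UTX knockout, or replicate 1, 2 or 3 of the labelled MLL4 knockdown (adjusted p from 0.0549 to 0.0764). Against wild type it did not pass (log2 change -0.90 with SE 0.35, adjusted p = 0.0826), but it did with the replicate block (log2 fold change -0.88, adjusted p = 0.0486) and without replicate 1 of the wild type (adjusted p = 0.0261). Pax9, of pharyngeal pouches and teeth, was low, with 66 counts in all. It stood at 0.260, 0.298 and 0.269 CPM over the wild type libraries, 0.638, 0.605 and 0.604 with UTX knocked out, and 0.161, 0.136 and 0.0886 with the MLL4 label. The groups did not overlap, in the order UTX knockout, wild type, labelled MLL4 knockdown, and the last held only 3, 3 and 2 counts. It is given as a description, since it entered the test only through its UTX knockout libraries. It is among the 11 members counted in the direct comparison (log2 change -2.23 with SE 0.42, adjusted p = 0.00285). Neither difference from wild type passed (log2 change 1.14 with SE 0.36, adjusted p = 0.0554, and log2 change -1.09 with SE 0.46, adjusted p = 0.138). Pax2, the kidney factor, held 93 counts in all and passed no test.

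Of the Six-type genes, Six4, which acts in muscle and kidney development, was the most abundant and passed no test with all libraries. Six4 stood at 42.4, 33.5 and 59.7 CPM over the wild type libraries, 57.7, 52.2 and 51.6 with UTX knocked out, and 45.8, 49.8 and 49.8 with the MLL4 label. Both perturbed groups overlapped wild type. Its log2 differences from wild type were 0.25 (95% interval -0.13 to 0.64, adjusted p = 0.361) in the UTX knockout and 0.10 (95% interval -0.29 to 0.49, adjusted p = 0.709) in the labelled MLL4 knockdown. Six4 passed in the UTX knockout only without replicate 3 of the wild type (adjusted p = 0.0395). Six5, which lies beside the myotonic dystrophy locus, stood at 5.19, 5.37 and 4.34 CPM over the wild type libraries, 4.12, 3.24 and 4.88 with UTX knocked out, and 6.03, 8.51 and 8.64 with the MLL4 label. The libraries labelled MLL4 knockdown were above all others. Six5 rose there against wild type (log2 change 0.64 with SE 0.21, adjusted p = 0.0462) and against the UTX knockout (log2 change 0.92 with SE 0.22, adjusted p = 0.00882). The first call was lost without replicate 2 or 3 of the wild type, or replicate 2 or 3 of the labelled MLL4 knockdown (adjusted p from 0.0596 to 0.155), in the fit of the 2 groups alone (adjusted p = 0.0513) and with a stricter filter on low counts (adjusted p = 0.0501), and the second held with each library left out in turn.

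Six3, of forebrain and eye, lost its call when any 1 library of either group was left out. It held 73 counts in all, at 0.208, 0.213 and 0.179 CPM over the wild type libraries, 0.785, 0.605 and 0.371 with UTX knocked out, and 0.215, 0.453 and 0.354 with the MLL4 label. Every UTX knockout library was above every wild type library. Six3 entered the test only through perturbed libraries, so its level in wild type had to be the lower. Its rise is therefore given as a description. Six3 rose in the UTX knockout (log2 change 1.52 with SE 0.46, adjusted p = 0.0440), but the call was lost without replicate 1, 2 or 3 of the wild type, or replicate 1, 2 or 3 of the UTX knockout (adjusted p from 0.0509 to 0.132), in DESeq2 and with no filter on low counts. Its antisense partner Six3os1 held 2, 1 and 2 counts over the wild type libraries, 12, 9 and 8 with UTX knocked out, and 7, 4 and 8 with the MLL4 label. Both had their highest mean in the UTX knockout, and reads of one cannot be told apart from those of the other where they overlap. Six2, of nephron progenitors, passed no test at 95 counts in all.

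Msx2 and Dlx3 fell in the labelled MLL4 knockdown. Msx2, a BMP-responsive gene of face and limb, stood at 1.45, 2.00 and 2.91 CPM over the wild type libraries, 1.28, 1.99 and 1.76 with UTX knocked out, and 0.807, 0.453 and 0.487 with the MLL4 label. Below all 6 others were the libraries labelled MLL4 knockdown. Msx2 fell there against wild type (log2 change -1.88 with SE 0.37, adjusted p = 0.00369), also with each library left out in turn, and was lower than in the UTX knockout (log2 change -1.54 with SE 0.37, adjusted p = 0.0104), a call lost without replicate 2 of the labelled MLL4 knockdown (adjusted p = 0.0510). Msx1 stood at 0.675, 1.02 and 1.12 CPM over the wild type libraries, 0.834, 1.21 and 2.14 with UTX knocked out, and 0.430, 0.860 and 0.354 with the MLL4 label. It was lower in the labelled MLL4 knockdown than in the UTX knockout (log2 change -1.33 with SE 0.45, adjusted p = 0.0459), although the libraries overlapped, and the call was lost without replicate 2 or 3 of the UTX knockout, or replicate 1 or 3 of the labelled MLL4 knockdown (adjusted p from 0.0853 to 0.202). Msx3, a dorsal neural tube gene, passed no test. The Msx genes summed to 3.76 ± 1.00 CPM for wild type, 3.55 ± 0.889 with UTX knocked out and 1.69 ± 0.321 under the MLL4 label (SD, n = 3).

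Dlx3, a regulator of placenta and skin, was the highest Dlx gene. It stood at 3.12, 3.88 and 5.02 CPM over the wild type libraries, 3.19, 4.02 and 4.83 with UTX knocked out, and 1.18, 1.63 and 2.57 with the MLL4 label. The libraries labelled MLL4 knockdown were below all others, and wild type and UTX knockout overlapped widely. Dlx3 fell in the labelled MLL4 knockdown (log2 change -1.15 with SE 0.31, adjusted p = 0.0184) and was lower than in the UTX knockout (log2 change -1.15 with SE 0.31, adjusted p = 0.0171). The first call was lost without replicate 3 of the wild type, or replicate 1 or 2 of the labelled MLL4 knockdown (adjusted p from 0.0636 to 0.0763), and the second without replicate 2 or 3 of the UTX knockout, or replicate 1 or 2 of the labelled MLL4 knockdown (adjusted p from 0.0510 to 0.0689). With UTX knocked out the log2 difference was 0.00 (95% interval -0.64 to 0.64, adjusted p = 0.997). Dlx4 and Dlx2 stayed below 1.2 CPM in every library and passed no test.

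No tested Lhx gene passed with all libraries in the fit without the block. Lhx6, of cortical interneurons, was the highest at 3.22, 4.82 and 4.84 CPM over the wild type libraries, 5.06, 4.32 and 4.04 with UTX knocked out, and 3.66, 3.48 and 3.85 with the MLL4 label. Both perturbed groups overlapped wild type. Lhx5, of the forebrain, had the largest absolute difference from wild type among members that did not pass in the UTX knockout, at 0.104, 0.597 and 0.941 CPM over the wild type libraries, 0.884, 1.34 and 2.04 with UTX knocked out, and 0.484, 0.634 and 1.02 with the MLL4 label. Wild type replicate 1 was below all other libraries, and the groups overlapped. The log2 difference of the UTX knockout was 1.34 (95% interval 0.13 to 2.56, adjusted p = 0.123). With the replicate block Lhx5 rose in the UTX knockout (log2 fold change 1.41, adjusted p = 0.0156) and was lower in the labelled MLL4 knockdown than in the UTX knockout (log2 fold change -1.0, adjusted p = 0.0403). Lhx2 and Lhx3 passed in no comparison. Over all tested members that did not pass, the log2 fold changes lay between -1.22 and 1.34 in the UTX knockout (30 members) and between -1.09 and 1.14 in the labelled MLL4 knockdown (26 members). A p that misses the threshold does not show that these values were alike.

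With the replicate number as a block, 8, 12 and 14 of 36 members passed in the UTX knockout, labelled MLL4 knockdown and direct comparisons, against 23.3%, 34.1% and 36.7% of all tested genes. No call of the fit without it was lost. The added calls are those of Irx4, Lhx5, Irx1, Pax8, Irx3 and Nkx6-2 given above.

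Relatives and partners of the members were read from lists chosen, like the members, with earlier results of these data known. Of 7 tested TALE relatives and partners, Mkx rose in the UTX knockout by a log2 fold change of 0.90 ± 0.20 (here and below ± is the SE) and 0 fell. In the labelled MLL4 knockdown Tgif1, a TALE repressor, rose (0.52 ± 0.11) and Tgif2 fell (-0.58 ± 0.15). Of 11 tested LIM-homeodomain relatives and LIM partners, Isl1 rose (1.70 ± 0.40) and Ssbp3, a cofactor of LIM complexes, fell (-0.58 ± 0.12) in the UTX knockout. In the labelled MLL4 knockdown Lmo2 rose (1.29 ± 0.30) and Lmx1b (-1.90 ± 0.36) and Lmo1 (-1.51 ± 0.46) fell.

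Of 12 tested partners in the Pax and Six-type network, 1 rose and 3 fell with UTX knocked out, and 2 rose and 1 fell under the MLL4 label. Eya3, a cofactor of Six-type proteins, rose in the UTX knockout (0.57 ± 0.12) and Wt1, of kidney and gonad, fell (-2.42 ± 0.46), with the Groucho corepressor Tle4 (-0.60 ± 0.15) and Sall1 (-0.57 ± 0.15). Eya1, another such cofactor, rose in the labelled MLL4 knockdown (1.40 ± 0.21), as did Paxip1 (0.33 ± 0.10), a subunit of MLL4 complexes, while Tle2 fell (-2.17 ± 0.37).

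Other paired-class and homeobox factors numbered 35 tested. Of these, 3 rose and 6 fell with UTX knocked out, and 7 rose and 7 fell under the MLL4 label. The forebrain gene Otx2 fell in both (-2.60 ± 0.31, and -4.67 ± 0.36). Vax2, of the ventral eye, rose in both (3.42 ± 0.53, and 3.82 ± 0.53). Of 16 tested Hedgehog, BMP and Wnt genes, 2 rose and 4 fell with UTX knocked out, and 3 rose and 1 fell under the MLL4 label. Gli2, a Hedgehog effector, rose in both (0.89 ± 0.18, and 2.51 ± 0.19), and the ligand Wnt3 fell in both (-1.75 ± 0.49, and -3.63 ± 0.61). The BMP target Id3 fell in the UTX knockout (-2.44 ± 0.30). Counts per list stood beside backgrounds of 15.5% and 26.6% of all tested genes, and nothing particular to a list is read from them.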

How the data were processed

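RNA sequencing counts of 9 libraries were used. The authors' deposited table holds raw counts of reads by gene symbol, and each of its columns was matched to a library through the title. The submitters' processing notes name STAR 2.4, HTSeq 0.6.1, mm9 and hg19 without roles, while the strand setting, annotation and any filter were not stated there.

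Differences in the counts were tested in R 4.3.3 by edgeR 4.0.16: filterByExpr by group (CPM above 0.446 in at least 3 libraries), TMM scaling, quasi-likelihood test on all 9 libraries with group only, two-sided, Benjamini-Hochberg over 14772 genes, called at adjusted p under 0.05. Alternatives were DESeq2 1.42.0, DESeq2 size factors, other filters, only the groups compared, lane 2 only, each library left out in turn, and a replicate block. Libraries sharing a number deviated alike from their groups: across genes, the correlations of numbers 1, 2 and 3 were 0.415, 0.168 and 0.381 (wild type and UTX knockout), 0.416, 0.182 and 0.238 (wild type and MLL4 label) and 0.467, 0.181 and 0.308 (both perturbed groups). Correlations of different numbers lay between -0.412 and 0.226. The highest, of labelled MLL4 knockdown 2 and UTX knockout 3, exceeded the 0.181 of number 2 in that comparison. Group means were subtracted first, so the deviations of a group sum to 0. Correlations of the same and of different numbers are therefore not independent, and part of the contrast between them is fixed. No label states a pairing, so a pairing by number is not settled. The fit was tested on simulated data. Full values are given for members called in any comparison and the 10 of highest mean CPM, and the remaining members are named. A few members and 1 gene of another list are not reported here by name, also where these rules would name them, but they stay in the fit and in the counts. Members and lists were chosen with earlier results of these data known. Exon lengths and chromosomes came from GENCODE vM21 (31110 of 33924 symbols matched) and promoter windows from RefSeq on GRCm38.p6. Members with no promoter window used include Dlx3, Dlx4, Dlx5, Dlx6, Irx1, Irx5, Irx6, Lhx5, Nkx2-6, Nkx6-3, Pax3, Pax4 and Pbx3. Totals ran from 18570746 to 23874816 counts per library, and limits for a count of 0 use 3 counts.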

Additional observations from a re-analysis of the deposited data

How the results depend on the processing

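With lane 2 only (2 libraries a group), 0 members were called in each comparison, and 74, 1341 and 1535 of all genes in the UTX knockout, labelled MLL4 knockdown and direct comparisons, against 2285, 3930 and 4275 with all libraries; fewer samples enter that fit. In the UTX knockout, all-gene calls were 3446 with the replicate block and 1240 in the fit of the 2 groups alone. Members reaching a summed count numbered 18 at 300, 42 at 30 and 32 at 90, and 36 passed filterByExpr. Leaving out each library in turn gave 3 to 6 members and 833 to 2854 genes for the UTX knockout, 4 to 12 and 2273 to 4108 for the labelled MLL4 knockdown, and 6 to 11 and 2556 to 4062 for the direct comparison. The lowest of these were without UTX knockout replicate 2 (3 members, 833 genes), without labelled MLL4 knockdown replicate 2 (4 and 2273), and, in the direct comparison, without labelled MLL4 knockdown replicate 1 or 2 (6 members each) and UTX knockout replicate 2 (2556 genes). Counts also moved by over 1.5 times without UTX knockout replicate 3 (1100 genes against wild type; 2840 genes and 7 members directly), without labelled MLL4 knockdown replicate 3 (2411 genes against wild type; 2793 directly), and, directly, without UTX knockout replicate 2 (7 members) and labelled MLL4 knockdown replicates 1 and 2 (2834 and 2739 genes).

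DESeq2 size factors and a summed count minimum of 90 changed 0 of the member calls they tested, and the replicate block lost 0 of 27 calls. DESeq2's own test lost only Six3, and no filter lost Six3, added Irx3 in the direct comparison and called Lhx8, otherwise untested at 16 counts in all, as higher under the MLL4 label than in wild type (adjusted p = 0.0479). The fit of only the groups compared lost Irx5 and Six5 against wild type and added 1 member call in the direct comparison. Six3 was not tested in that fit of the UTX knockout, which called 4 members. Of 1458 member values under alternatives, 57 had another sign, none of them called in either fit, with an absolute log2 fold change of at most 0.88. Depth limits the members under 90 counts most: a count of 0 allows up to 0.161 CPM in the shallowest library.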

Other observations

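Over the 9 libraries, the genes whose log2 CPM followed the most abundant called members most closely were named by Pearson's r among 10772 genes, as a description with no test, since all points share the same libraries and groups. For Nkx6-3 they were Tbx3 (r = 0.976), Rapgef3 (0.975) and Slc29a1 (0.969). For Pax6 they were Psip1 (r = 0.976), Slc1a3 (0.956) and Cdk5rap2 (0.940), and for Pbx4 Tmem189 (r = 0.965), Clybl (0.945) and Plekha6 (0.935).

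Markers of other lineages that these factors pattern were also read, with values in parentheses being log2 differences from wild type ± SE. Of 8 tested mesoderm genes, 1 rose and 1 fell in each comparison with wild type. The heart and trophoblast gene Hand1 fell in the UTX knockout (-2.43 ± 0.71) and in the labelled MLL4 knockdown (-3.30 ± 0.77), Gata4 rose in the UTX knockout (0.65 ± 0.18) and Tcf15 rose in the labelled MLL4 knockdown (1.09 ± 0.17). Of 6 tested endoderm genes, Gata6 rose in the labelled MLL4 knockdown (1.52 ± 0.29), and Hnf4a fell in both perturbed groups. Hnf4a went from a mean of 0.921 CPM in wild type to 0.0327 CPM in each perturbed group, below the limit for a count of 0. It passed the filter only through wild type libraries, so its level there had to be the higher. Of 4 tested surface ectoderm or neural crest genes, Tcfap2a fell in both (-1.09 ± 0.32, and -1.84 ± 0.35) and Sox10 fell in the labelled MLL4 knockdown (-1.20 ± 0.35).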
